A study of Arabidopsis thaliana with 12 samples.

Results

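Nuclear genes for the proteins of the plastid ribosome were followed in rosettes of Arabidopsis thaliana moved from very dim to strong light. The set held 38 of the 28775 genes in the count files, taken from a list of identifiers by the protein encoded, with no threshold on a measured value. Of these, 24 encode proteins of the large (50S) subunit, 9 encode proteins of the small (30S) subunit and 5 encode plastid-specific ribosomal proteins (PSRPs). Ribosome-protected fragments (RPF), which are the stretches of mRNA shielded by ribosomes from RNase, and total RNA were sequenced. The 12 libraries formed 4 groups of 3, since both RPF and total RNA were taken from plants of each light treatment. All came from whole rosettes of the Col-0 accession, with no transgene or mutation named. Plants aged 3 weeks first spent 10 days in low light of 8 µmol photons per square metre and second, and the high-light groups then received 800 of the same units for 10 min before harvest. The growth period before that, at moderate light, was common to all groups. Libraries were numbered 1 to 3 within each group, and the methods call them biological replicates.

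Chloroplasts keep their own bacterial-type ribosomes, which translate the plastid genome, including core subunits of the photosystems and the large subunit of Rubisco. Most proteins of these ribosomes are encoded in the nucleus, translated on cytosolic ribosomes and imported, while the rest are encoded in the plastid and made on plastid ribosomes. RPF on a member therefore record its translation in the cytosol, not the activity of the plastid ribosome. Several members carry an EMB name because mutants stop as embryos, and PSRPs have no counterpart among the ribosomal proteins of Escherichia coli.

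Counts on protein-coding genes ranged from 1162389 to 2119227 in the RPF libraries and from 2438332 to 16053563 in those of total RNA. RPF libraries numbered 1 stood apart, with 82.7% (low light) and 84.6% (high light) of their counts on rRNA genes, against 4.42% to 8.66% in the other RPF libraries. Libraries of the same number resembled each other across light and library type. Fits with the number as a block, or without number 1, are therefore given beside several, not all, of the results they change. Levels are given in CPM, counts per 1000000 counts on nuclear protein-coding genes. The 3 leaf markers checked were abundant, from 3054 CPM for RCA, which encodes Rubisco activase, to 29515 CPM for CAB1, a chlorophyll-binding protein gene. Of 6 markers of other organs, 5 (CRA1, SESA3, AP1, AG and LFY) had at most 3 counts in any library, and the root gene PYK10 lay between 101 and 161 CPM.

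Every member was detected in every library. The lowest count of a member in a library was 48, and the summed counts of the 38 ranged from 4005 to 9438 in RPF libraries and from 8367 to 43739 in those of total RNA. A count of 3 corresponded to between 0.681 and 5.56 CPM. All 38 members passed the filter on low counts in each comparison.

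Levels of different members are given as CPM per kb of counted gene span, which includes introns and untranslated regions, so a gene with long introns reads low. On log2 scales, low-light RPF per kb correlated with span at Pearson -0.51 across the members. For CPM not divided by span that value was 0.38. In low-light RPF the members spanned 5.38-fold, from 58.9 to 316 CPM per kb with a median of 145. In low-light total RNA they spanned 6.54-fold, from 84.3 to 552 CPM per kb with a median of 169. Across the 38 members, log2 CPM in RPF and in total RNA correlated at Pearson 0.72 and Spearman 0.73 in low light, and at 0.71 and 0.72 in high light. These correlations are across genes that share libraries and gene length, and describe the members only. Within one library type the levels in the 2 lights correlated at Pearson 0.94 in RPF and 0.98 in total RNA.

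At the top of the 50S members in low-light RPF stood AT2G43030 (chromosome 2, 17894836 to 17895866, plus strand, TAIR10), which the gene table lists without a symbol. Its RPF level was 298, 346 and 306 CPM per kb in low-light libraries 1, 2 and 3 and 296, 321 and 356 under high light. In high-light RPF its mean of 324 CPM per kb came after the 348 of AT3G54210, whose libraries overlapped with it. Its total RNA level was 536, 543 and 575 CPM per kb under low light, against 497, 563 and 488 under high light, higher than any other member in both. The lowest 50S member in low-light RPF was AT4G17560 (chromosome 4, 9780279 to 9782183, plus strand), with 76.7, 56.2 and 43.7 CPM per kb. In RPF the low-light and high-light libraries of each of these genes overlapped.

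Among 30S members GHS1 (chromosome 3, 10017476 to 10019090, plus strand), which encodes the small-subunit protein S21, was the lowest, with 80.3, 63.3 and 78.5 CPM per kb under low light, against 83.8, 51.2 and 89.5 under high light. Its light groups overlapped. The low-light RPF means per kb of the 5 PSRPs spanned 1.35-fold, less than those of either subunit's proteins. A range tends to widen with the number of genes, and both subunits have more members. In CPM not divided by span, the PSRP means ran from 93.2 for PSRP6 to 218 for PSRP2. PSRP6 (chromosome 5, 5907775 to 5908335, plus strand) was the highest of them in low light with 177, 139 and 183 CPM per kb, and had 193, 123 and 188 under high light, where its mean of 168 was below the 185 of PSRP5. PSRP3/1 (chromosome 1, 25757404 to 25758232, minus strand) was the lowest in both lights with 165, 119 and 83.4 CPM per kb in low light, and 196, 101 and 143 under high light. The libraries of PSRP6 and PSRP3/1 overlapped in each light, so their order did not exceed the spread.

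**Figure D1:**
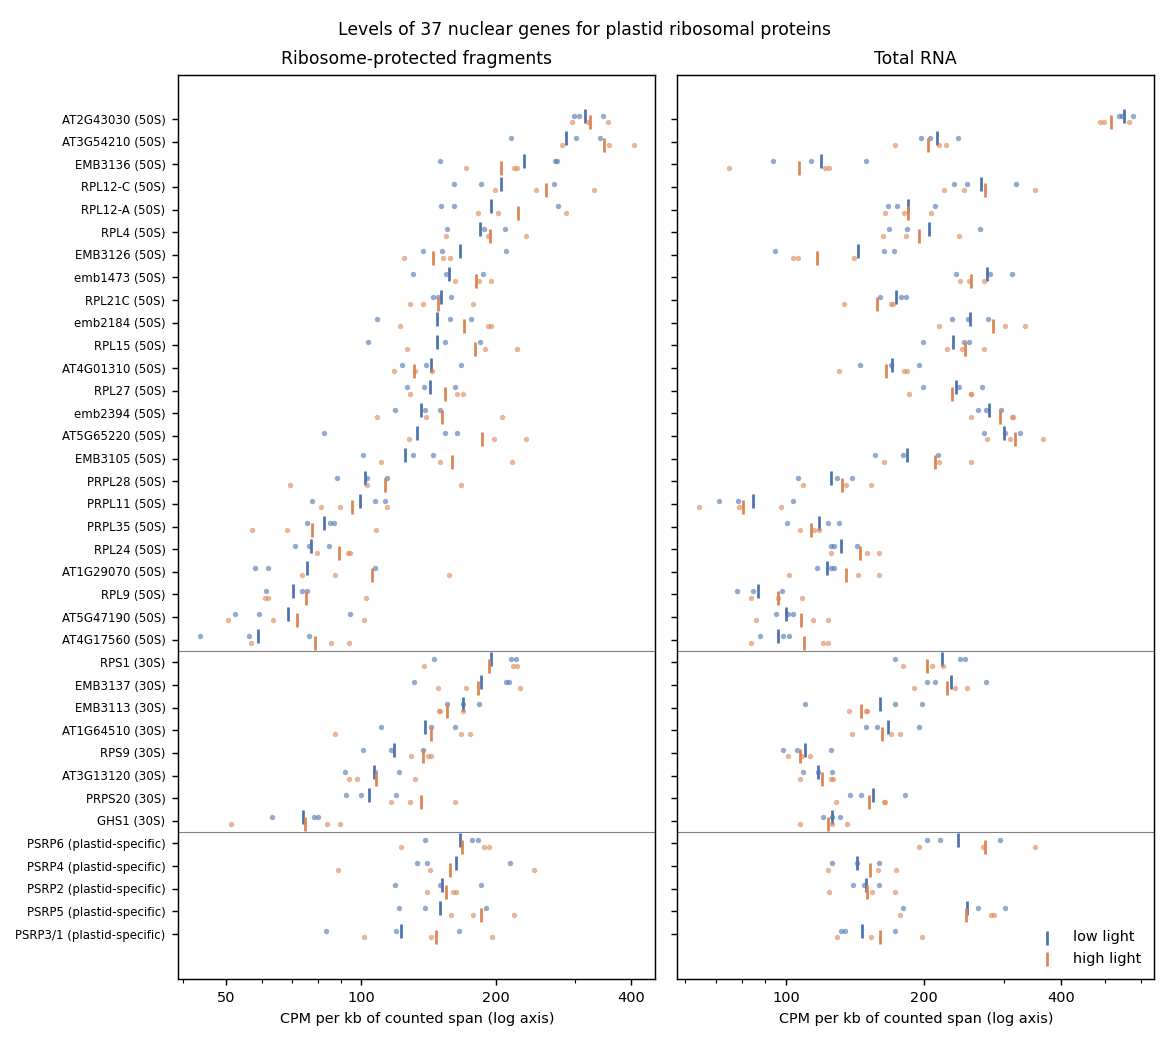
Level of 37 of the members in CPM per kb of counted span (log axis) in RPF (left) and total RNA (right), with dots for single libraries, vertical ticks for means of 3, and low and high light in different colours. Members are ordered by low-light RPF within 50S, 30S and plastid-specific groups, from 316 for AT2G43030 to 58.9 for AT4G17560 among the 50S, and the light groups overlap for every gene drawn.

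Together the 38 members took 0.775, 0.649 and 0.764% of nuclear protein-coding counts in low-light RPF libraries 1, 2 and 3, a mean of 0.729% ± 0.0695 (SD, n = 3). In high-light RPF they took 0.902, 0.668 and 0.789%, a mean of 0.787% ± 0.117 (SD, n = 3). Of total RNA their share was 0.943% ± 0.0557 (SD, n = 3) before and 0.940% ± 0.111 (SD, n = 3) after high light. Light groups overlapped in both library types. In total RNA the light groups of all 38 single members overlapped too, beside 4.24% of all tested genes with no overlap above and 2.41% below. In bulk rosettes a lower share cannot tell fewer cells of a type from less RNA per cell. The summed 50S counts were 2.17 to 2.49 times the summed 30S counts in RPF and 2.36 to 2.85 times in total RNA. That ratio was lower in RPF than in the total RNA library of the same light and number in 6 of 6 pairs. Shares of all protein-coding counts were smaller, because plastid genes, psbA above all, took 42.5% to 72.5% of them.

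Whether members' footprints changed within the 10 min was tested with edgeR's quasi-likelihood test on all 10759 genes that passed the filter, with Benjamini-Hochberg adjustment over all of them. No member passed in RPF: 0 of 38 were called, while 0.223% of all tested genes were called higher and 0% lower. At an unadjusted p under 0.05 the member count was also 0, beside 360 of the 10759 tested genes. DESeq2 called 0 members, beside 0.335% of genes higher and 0.0186% lower. Blocked by library number, edgeR gave 9 members an unadjusted p under 0.05, all 9 higher, beside 6.1% of all tested genes higher and 4.12% lower. In the blocked fit without number 1 there were 6, of which 5 were higher, beside 602 of 9962 tested genes, of which 352 were higher. The log2 change was positive for 32 of 38 members, with a median of 0.17 beside -0.003 over all tested genes. By group, 19 of 24 members of the 50S subunit, 8 of 9 of the 30S subunit and 5 of 5 PSRPs were positive, with medians of 0.23, 0.08 and 0.08. Standard errors of single members were 0.21 to 0.38, larger than most of the changes. From group means on nuclear CPM, 28 of 38 members were positive, with a median of 0.10 beside -0.06 over all tested genes.

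The edgeR median and the count of positive members both rested on single libraries. Without high-light RPF library 1 the median was -0.05, with 16 of 38 members positive. Without high-light RPF library 2 it was 0.36, with 35 of 38 positive. Without low-light RPF library 2 it was 0.08, with 23 of 38 positive. With all number 1 libraries left out it was 0.07, with 25 of 38 positive. Within pairs of the same number, the median member change in RPF was 0.30, 0.07 and 0.13 for numbers 1, 2 and 3, with 35, 24 and 27 of 38 members positive. In 3 of 3 pairs 16 of 38 members were higher in high light, beside 16.2% of all tested genes, and 0 were lower, beside 15.1%. Of these 16 members, 14 encode 50S proteins, and the 30S members among them were RPS9 and PRPS20.

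**Figure D2:**
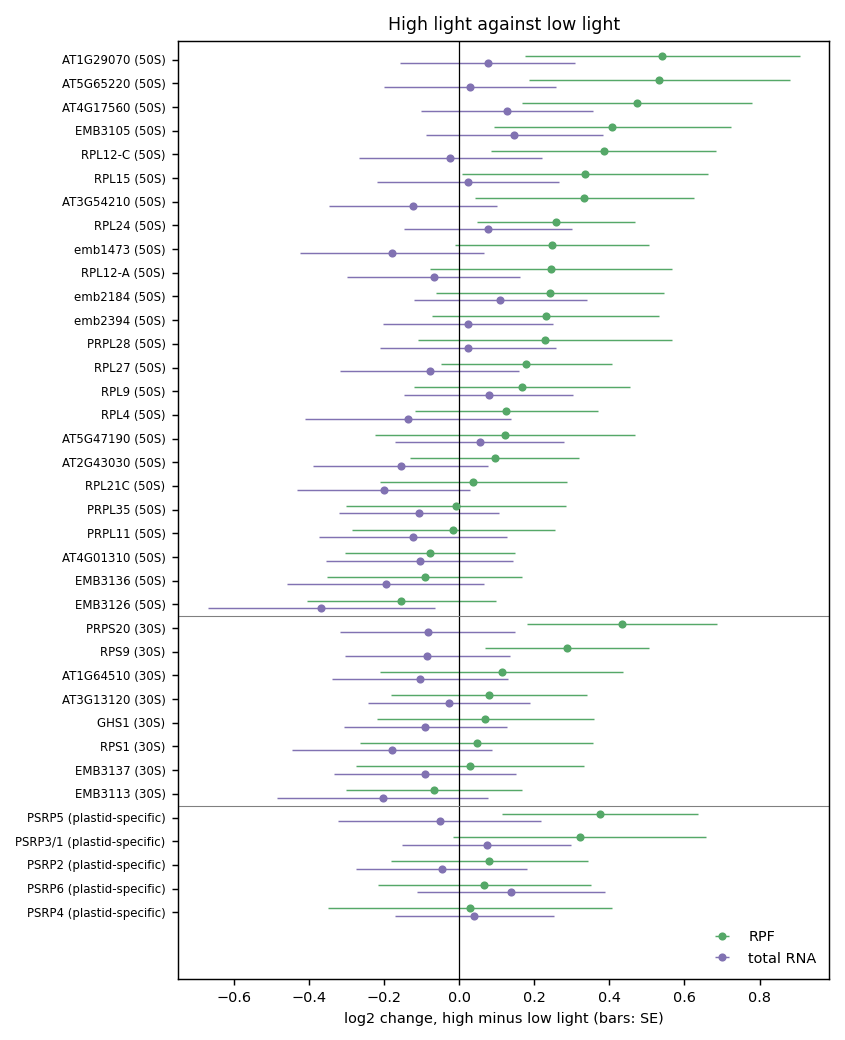
Log2 change from low to high light (x axis, bars are standard errors) of 37 of the members in RPF and in total RNA from edgeR, grouped by subunit and ordered by the RPF change. Most RPF points lie right of 0 and the total RNA points lie on both sides, with error bars that reach 0 for many members and no member past the adjusted threshold.

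The members with the smallest p in RPF were PRPS20, AT4G17560 and AT5G65220. PRPS20 (chromosome 3, 5116141 to 5117615, plus strand), which encodes a small-subunit protein, had 148, 136 and 177 CPM in low-light RPF libraries and 189.9, 172 and 239 under high light. Its groups overlapped, since library 3 in low light exceeded library 2 in high light, although each pair of the same number was higher in high light. The log2 change was 0.43 ± 0.25 (SE), with an unadjusted p of 0.111 and an adjusted p of 1.00 by edgeR. AT4G17560 had 146, 107 and 83.3 CPM under low light, against 179, 108 and 163 under high light, with a log2 change of 0.47 ± 0.31 (SE) and an unadjusted p of 0.146 by edgeR. Its within-pair changes ran from 0.07 for number 2 to 1.00 for number 3, and its groups overlapped.

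AT5G65220 (chromosome 5, 26061229 to 26062682, plus strand), a 50S member listed without a symbol, had 223, 120.0 and 238 CPM in low-light RPF and 339.8, 186 and 287 under high light. Library 2 was the lowest in both groups, and the groups overlapped. Its log2 change was 0.53 ± 0.35 (SE), with within-pair changes of 0.66, 0.68 and 0.32. With the replicate number as a block it was the one member that edgeR called, at 0.56 ± 0.16 (SE) and an adjusted p of 0.0341, beside 1.39% of all tested genes called higher and 0.428% lower in that fit. The call was not made by DESeq2 with the same block (adjusted p = 0.594) nor by the blocked edgeR fit without number 1 (adjusted p = 0.667).

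In total RNA the members showed no shared direction. EdgeR called 0 of 38 in 15701 tested genes, where 0.223% were called higher and 0.0127% lower. An unadjusted p under 0.05 was reached by 0 members, beside 371 of the 15701 genes. DESeq2 also called 0, beside 0.35% of genes higher and 0.0573% lower. The log2 change was positive for 14 of 38, with a median of -0.07 beside -0.01 over all genes. None of the 9 members of the 30S subunit was positive, against 11 of 24 of the 50S subunit and 3 of 5 PSRPs, with medians of -0.09, -0.05 and 0.04.

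Within a pair most members' total RNA lay on one side of 0, but the side differed between pairs. For number 2 the median was 0.18, and 37 of 38 members were positive. For number 3 the median was -0.28 with 2 of 38 positive, and for number 1 it was -0.18 with 13 of 38 positive. As a result 0 members were higher in 3 of 3 pairs, beside 15.5% of all tested genes, and 0 were lower, beside 14.7%. The sign of the median also turned with single libraries, to 0.03 without low-light total RNA library 1 and to 0.02 without high-light total RNA library 3. Without all number 1 libraries the median was -0.002, with 18 of 38 members positive.

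**Figure D3:**
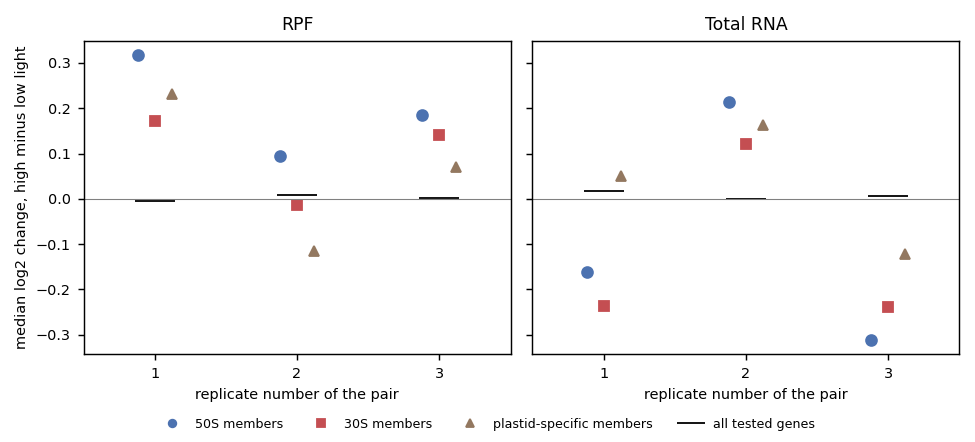
Median log2 change from low to high light (y axis) over the 50S, 30S and plastid-specific members within each pair of libraries of one replicate number (x axis), in RPF (left) and total RNA (right), with black bars for the median of all tested genes. In RPF the 50S median is above 0 in all 3 pairs, and in total RNA the medians of both subunits are above 0 for number 2 and below 0 for numbers 1 and 3.

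The members with the smallest p in total RNA were EMB3126, RPL21C and EMB3136, all with negative estimates. EMB3126 (chromosome 3, 23444203 to 23446355, plus strand), encoding the large-subunit protein L1, had 371, 203 and 353 CPM under low light, against 304, 222 and 228 under high light. Low-light library 2 was below every high-light library, so the groups overlapped, and the log2 change was -0.37 ± 0.30 (SE) with an unadjusted p of 0.250 by edgeR. RPL21C (chromosome 1, 13208736 to 13210418, plus strand), encoding the large-subunit protein L21, had 308, 270.4 and 300.4 CPM under low light, against 285, 288 and 225 under high light, with a log2 change of -0.20 ± 0.23 (SE). EMB3136 had 125, 94.7 and 77.9 CPM under low light, against 101, 103 and 62.6 under high light, with a log2 change of -0.20 ± 0.26 (SE), and it turned to 0.01 without low-light library 1. The light groups of both genes overlapped.

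Translational efficiency is RPF relative to total RNA. Its change from low to high light was tested as an interaction over all 12 libraries. EdgeR called 0 of 38 members and 0% of 12789 tested genes. An unadjusted p under 0.05 was reached by 0 members, beside 179 of the 12789 genes, and DESeq2 called 0 members. With the block edgeR still called 0, and 3 members had an unadjusted p under 0.05, all higher, beside 2.42% of all tested genes higher and 1.74% lower. In the blocked fit without number 1 there were 0, beside 542 of 15104 tested genes. The estimate was positive for 36 of 38 members, with a median of 0.20 beside 0.02 over all tested genes. All 24 members of the 50S subunit and all 9 of the 30S subunit were positive, with medians of 0.23 and 0.20, and 3 of 5 PSRPs were positive, with a median of 0.11. Single standard errors were 0.29 to 0.47. Leaving out 1 library at a time moved the median from 0.01, without high-light RPF library 1, to 0.38, without high-light RPF library 2. In these 2 fits 21 and 38 of 38 members were positive. Without all number 1 libraries it was 0.12, with 27 of 38 members positive.

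PRPS20, RPS9 and AT3G54210 had the smallest p for the change in translational efficiency. For PRPS20 the total RNA libraries held 268, 215 and 204 CPM under low light, against 243, 241 and 189 under high light, overlapping groups, and the estimate was 0.50 ± 0.34 (SE) with an unadjusted p of 0.162. RPS9 (chromosome 1, 28157530 to 28159302, minus strand), encoding the small-subunit protein S9, had 179, 243 and 206 CPM in low-light RPF and 229, 253 and 250.2 in high-light RPF. Low-light library 2 was above high-light library 1, so the RPF groups overlapped on this scale.

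In total RNA, RPS9 had 222, 187 and 175 CPM under low light, against 179, 200.2 and 192 under high light, which also overlapped. Its estimate was 0.36 ± 0.29 (SE), and that of AT3G54210 was 0.44 ± 0.38 (SE). The RPS9 estimate was 0.24 without low-light total RNA library 1 and 0.13 without all number 1 libraries. Leaving out low-light RPF library 2 gave 0.23 for AT3G54210, and leaving out low-light RPF library 1 gave 0.65. With library sizes scaled by TMM in place of nuclear CPM, the RPF groups of 2 members, RPS9 and RPL24, no longer overlapped. Both were above, beside 4.63% of all tested genes above and 4.47% below. On nuclear CPM 0 members were free of overlap, beside 3.31% and 5.14%.

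RPF were also set against total RNA within each light. Since TMM centres this ratio on the typical gene, a negative value means fewer RPF counts per total RNA count than the typical gene had. Both were counted over the whole gene span, untranslated regions included. The part that the coding share of the span has in the ratio was not tested. The 2 library types were prepared differently and aligned with different tools, and the part of this in the ratio was not tested.

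In low light the ratio was negative for 29 of 38 members, with a median of -0.29 beside -0.02 over all genes. The median was -0.47 in the 50S members, -0.23 in the 30S members and -0.20 in the PSRPs. EdgeR called 0 of 38 members, where 3.33% of 11756 tested genes were called higher and 1.71% lower, and 11 members had an unadjusted p under 0.05, 10 of them negative, beside 11.8% of all tested genes higher and 10.4% lower at that p. The smallest adjusted p of a member was 0.0562. DESeq2 called 1 member higher and 3 lower, beside 4.47% and 2.35% of genes. Leaving out 1 library at a time gave medians from -0.50, without low-light RPF library 1, to -0.14, without low-light RPF library 2. Within numbers 1, 2 and 3 the median was -0.21, -0.58 and -0.25.

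With the replicate number as a block, edgeR called 1 member higher and 6 lower, beside 7.46% and 4.98% of all tested genes. EMB3136, encoding protein L10 at the base of the stalk of the large subunit, was the higher one, at 0.98 ± 0.27 (SE) with an adjusted p of 0.0211. The lower ones were AT5G65220 at -1.18, emb2394 at -1.00, emb1473 at -0.78, AT2G43030 at -0.77, GHS1 at -0.74 and RPL24 at -0.74. Apart from GHS1 they are 50S members. On nuclear CPM, RPF libraries lay below all total RNA libraries for 19 of 38 members, beside 13.8% of all tested genes, and above for 0, beside 12.8%. On TMM CPM these counts were 14, beside 13.2%, and 1, beside 14.1%.

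The negative end of that range was held by emb2394 and AT5G65220. The gene emb2394 (chromosome 1, 1502344 to 1503830, minus strand), which encodes the large-subunit protein L6, had 222, 177 and 206 CPM in low-light RPF and 392, 440.2 and 407 in low-light total RNA. All 3 RPF libraries were below all 3 total RNA libraries. Its log2 ratio was -0.98 ± 0.27 (SE), with an adjusted p of 0.0562 by edgeR. AT5G65220, whose RPF values are given above, had 439, 473 and 395 CPM in low-light total RNA, also free of overlap, and a log2 ratio of -1.10 ± 0.33 (SE) with an adjusted p of 0.0714 by edgeR. Its within-pair ratios were -0.89, -2.01 and -0.68.

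EMB3136 (chromosome 5, 4341262 to 4342095, plus strand) stood at the other end. It had 125, 225 and 228 CPM in low-light RPF, against the 125, 94.7 and 77.9 CPM in total RNA given above. RPF library 1 was level with total RNA library 1, and the other RPF libraries were above all total RNA libraries. The log2 ratio was 0.98 ± 0.30 (SE), with an adjusted p of 0.0742 by edgeR. Without all number 1 libraries it was 1.44 ± 0.34 (SE) with an adjusted p of 0.0101, and it also passed without RPF library 1 alone (adjusted p = 0.0434) or total RNA library 1 alone (adjusted p = 0.0431).

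**Figure D4:**
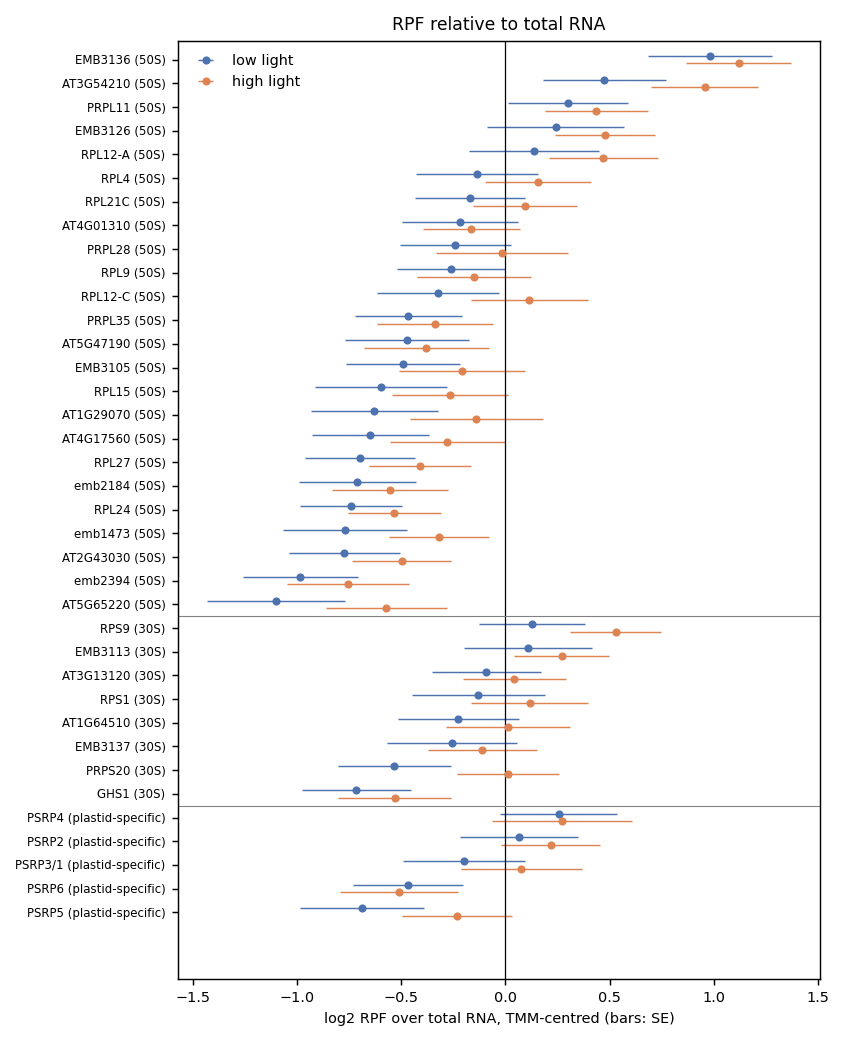
Log2 ratio of RPF to total RNA, centred by TMM (x axis, bars are standard errors), of 37 of the members in low and high light, grouped by subunit and ordered by the low-light ratio. EMB3136 lies at the right with 0.98 in low light and 1.12 in high light, while AT5G65220 and emb2394 lie at the left in low light with -1.10 and -0.98.

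In high light, which used other libraries, 2 of 38 members were called higher and 0 lower by edgeR, beside 5.38% and 1.76% of 13845 tested genes. The median over members was -0.10 beside -0.01 over all genes, with 17 of 38 positive. Without high-light RPF library 1 that median was -0.38, and without high-light RPF library 2 it was 0.08. Without all number 1 libraries it was -0.32, with 11 of 38 positive. Within numbers 1, 2 and 3 it was 0.18, -0.67 and 0.07. By group it was -0.19 for the 50S members, 0.01 for the 30S members and 0.08 for the PSRPs. Scaling mattered here: on nuclear CPM the median of all tested genes was itself -0.18, the members' median was -0.29 and 9 of 38 were positive. The ratios of the 38 members in low and in high light correlated at Pearson 0.94 and Spearman 0.93, and 30 of 38 had the same sign in both. These values describe genes that were measured with the same pair of library types, and are not evidence over plants.

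EMB3136 was one of the called members. Its RPF libraries held 186, 183 and 143 CPM and its total RNA libraries 101, 103 and 62.6 CPM in high light. Every RPF library was above every total RNA library, and the ratio was 1.12 ± 0.25 (SE) on the log2 scale, 2.17-fold, with an adjusted p of 0.0204 by edgeR. The call was kept in 2 of 6 fits that left out 1 library, with adjusted p from 0.0404 to 0.0828, and was lost without RPF library 1 or 2 or total RNA library 2 or 3. Without all number 1 libraries the adjusted p was 0.0524, and with the block it was 0.00277. EMB3136 is 1 of 7 members, PRPS20 and EMB3126 among them, that overlap a neighbouring gene on the opposite strand, and counting was stranded.

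AT3G54210 (chromosome 3, 20067540 to 20068435, minus strand), a 50S member listed without a symbol, was the other. It had 363, 252 and 321 CPM in high-light RPF and 201, 194 and 155 in high-light total RNA, with every RPF library above. In low light it had 305, 193 and 270.2 CPM in RPF and 213, 177 and 185 in total RNA, where RPF library 2 lay inside the total RNA range. The high-light log2 ratio was 0.96 ± 0.26 (SE), 1.94-fold, with an adjusted p of 0.0416 by edgeR, and the low-light ratio was 0.48 ± 0.29 (SE) with an adjusted p of 0.376. The difference between the lights was tested as the change in translational efficiency in a separate fit over all 12 libraries, where its estimate of 0.44 did not pass. The high-light call was kept in 1 of 6 fits that left out 1 library, with adjusted p from 0.0469 without RPF library 2 to 0.156 without total RNA library 2. It was lost without all number 1 libraries (adjusted p = 0.137) and with a mean of at least 10 CPM required (adjusted p = 0.0636).

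The third member by p was emb2394, with 307, 162 and 208 CPM in high-light RPF and 465, 466 and 379 in total RNA. Every RPF library was below every total RNA library, library 1 coming nearest. Its log2 ratio was -0.75 ± 0.29 (SE) with an adjusted p of 0.141 by edgeR. It was called lower with the block, at -0.82 ± 0.26 (SE) and an adjusted p of 0.0485, beside 3.71% of all tested genes lower and 7.66% higher. It was also called without high-light RPF library 1, at -1.14 and an adjusted p of 0.0351. On nuclear CPM 3 of 38 members had all RPF libraries above all total RNA libraries, beside 9.65% of all tested genes, and 10 had them below, beside 21.1%. On TMM CPM these counts were 5, beside 15.9%, and 6, beside 13.5%.

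**Figure D5:**
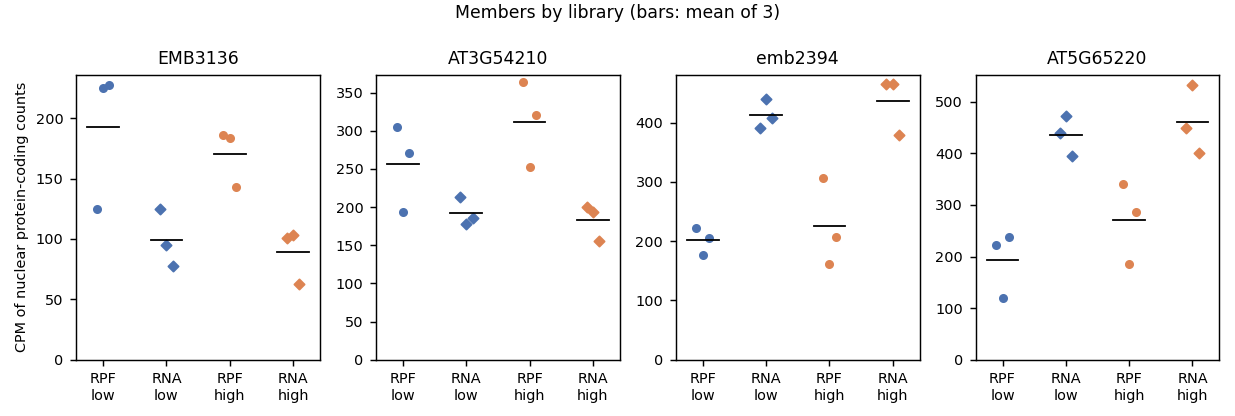
CPM of nuclear protein-coding counts (y axis, from 0) in each library for EMB3136, AT3G54210, emb2394 and AT5G65220, with circles for RPF, diamonds for total RNA and a bar at the mean of 3. In high light every RPF library of EMB3136 and AT3G54210 lies above the total RNA libraries, and in both lights every RPF library of emb2394 and AT5G65220 lies below them.

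Some members exist as close copies, between which reads may have been split or dropped in the authors' processing, so values of single copies are uncertain. Gene copies in the plastid inverted repeat had RPF counts in the number 1 libraries alone, as given below. Whether reads shared by close copies among the members were also counted differently in number 1 was not tested. RPL12-A and RPL12-C, whose product L12 forms the mobile stalk that recruits translation factors, lie close together on chromosome 3, at 10318505 to 10319432 and 10324839 to 10325713. RPL12-A had 255, 149 and 139.6 CPM in low-light RPF and 266, 169 and 187 in high-light RPF, and RPL12-C had 236, 162 and 141 and 289, 215 and 174. For both, the number 1 libraries were the highest and the light groups overlapped.

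In total RNA RPL12-A had 162, 155 and 197 CPM under low light, against 152, 193 and 168 under high light, and RPL12-C had 204, 279 and 218 and 215, 307 and 194. The counts of RPL12-A were 0.787 to 1.08 times those of RPL12-C in RPF and 0.557 to 0.904 times in total RNA. The third gene of the cluster, RPL12-B, which is not among the 38, had 0 counts in 12 of 12 libraries.

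Another pair of similar 50S members is AT4G17560 and AT5G47190. AT5G47190 (chromosome 5, 19164246 to 19166107, minus strand) had 176, 97.3 and 110.1 CPM in low-light RPF and 189, 94.2 and 119 in high-light RPF. In total RNA it had 177, 188 and 192 CPM under low light, against 213, 230.3 and 159 under high light, and AT4G17560 had 167, 193 and 188 and 235, 229.7 and 159.8. The counts of AT4G17560 were 0.946 to 1.10 times those of AT5G47190 in total RNA and 0.756 to 1.38 times in RPF. The second copy of PSRP3, PSRP3/2, also outside the set, lay between 0 and 11.5 CPM.

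The rest of the plastid translation machinery was read out of the same fits. None of 13 nuclear plastid translation factors, 14 plastid ribosome assembly factors and 18 tested plastid-encoded ribosomal protein genes passed in RPF between lights, and none passed in total RNA or in translational efficiency. Their median log2 change in RPF was -0.04, -0.02 and -0.19, beside 0.17 for the members. For the change in translational efficiency the medians were 0.08 for the translation factors and 0.23 for the assembly factors. They were -0.28 for the same 18 plastid-encoded genes, beside 0.20 for the members. Among the factors, emb2726, which encodes elongation factor Ts, had the smallest p in RPF, with 660.1, 705 and 715 CPM under low light, against 423, 619 and 471 under high light. Its groups did not overlap, beside 5.14% of all tested genes lower in the same way on nuclear CPM, and its log2 change was -0.42 ± 0.23 (SE). APG3, encoding a peptide chain release factor, followed at 0.51 ± 0.30 (SE). The assembly list was led by AT2G25870 at 0.54 ± 0.31 (SE) and AT4G34730 at -0.42 ± 0.31 (SE), and the plastid-encoded list by rps16 at -0.47 ± 0.33 (SE) and rps2 at -0.42 ± 0.30 (SE).

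In the low-light ratio of RPF to total RNA the lists had medians of -0.22 for the translation factors, 0.32 for the assembly factors and 0.74 for the plastid-encoded proteins, beside -0.29 for the members. The 22 plastid-encoded genes tested here included 4 with RPF counts in the number 1 libraries alone, and the median of the 18 with counts in every RPF library was 0.62. None of the 4 was called. EdgeR called 0 of 13 translation factors, in a fit with 3.33% of all tested genes higher and 1.71% lower. It called 1 of 14 assembly factors higher, SVR1, which encodes a plastid pseudouridine synthase, at 1.29 ± 0.33 (SE) with an adjusted p of 0.0435. That ratio rests on low counts, 34, 30 and 34 in low-light RPF and 9, 73 and 43 in low-light total RNA. The next assembly factor was EMB269 at 1.37 ± 0.39 (SE). Of 22 tested plastid-encoded genes 1 was called higher, rps15 at 1.95 ± 0.36 (SE) with an adjusted p of 0.00953, followed by rps3 at 1.46 ± 0.40 (SE). With the block, where 7.46% of all tested genes were called higher and 4.98% lower, 1 translation factor was called lower, AT4G30690 at -0.92 with an adjusted p of 0.0162 by edgeR. In that fit 2 assembly factors and 5 plastid-encoded genes were called higher, SVR1 (adjusted p = 0.00665) and rps15 (adjusted p = 5.3e-05) among them. AT2G24060 was the second translation factor by p, at -0.75 ± 0.27 (SE).

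In high light 1 translation factor was called lower, 3 assembly factors were called higher, and 3 plastid-encoded genes were called higher and 1 lower, beside 5.38% of all tested genes higher and 1.76% lower. With the block 1 translation factor was called higher and 1 lower, 3 assembly factors were called higher, and 4 plastid-encoded genes were called higher and 3 lower, beside 7.66% and 3.71%. These lists were not compared with the members by a test. Copies of rpl2, rpl23 and rps7 in the plastid inverted repeat had 7269 counts in the low-light and 5246 in the high-light RPF library numbered 1, and 0 in the other RPF libraries.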

How the data were processed

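Counts per gene, raw and not normalised, were deposited by the authors as 1 file per library; per the file headers they came from featureCounts 1.5.0-p1, stranded (setting 1 for RPF, 2 for total RNA), after Bowtie2 for RPF and subjunc for total RNA. Tools in the submitters' processing notes were Subread 1.4.5 and Bowtie2 2.2.9, cutadapt 1.9.1 and FastQC 0.11.5, and the genome TAIR10. Length equalled the gene's span for all 28775 genes, so the authors' counts cover introns and untranslated regions. Coding lengths were not used here, and levels are per kb of that span in place of the coding length planned. A RefSeq gene table (TAIR10.1) supplied names and types, matched through the locus tag for 28009 genes and through coordinates for 123 of 133 in the plastid. It gave symbols to 29 of the 38 members, and the other 9 are called by identifier.

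Tests used the 26789 protein-coding genes in edgeR 4.0.16 (R 4.3.3): filterByExpr, TMM, quasi-likelihood test, Benjamini-Hochberg adjustment over all tested genes, adjusted p under 0.05. DESeq2 1.42.0 was an alternative. Python 3.11.15 with pandas 2.3.3, numpy 2.4.6 and matplotlib 3.10.9 was also used. The fits were tested on simulated counts, where planted changes were larger than any member's estimate in the fits given first and library number had no effect. That test does not bear on changes as small as those of the members. P-values measure the spread between these libraries. The list of members uses no measured value, but members and lists were chosen with earlier results of these data known. Named members were, for each comparison, the 3 with the smallest p, the highest and lowest of each subgroup in low-light RPF, and the L12 and AT4G17560 copies, except 1 member that is not reported here singly or drawn; of other lists, the 2 smallest p in RPF and in the low-light ratio.

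The labels number libraries 1 to 3 in each group. After removing group means, same-number libraries correlated over 10727 genes at 0.28 to 0.46 between lights in RPF and 0.47 to 0.62 in total RNA. Between RPF and total RNA they correlated at 0.14 to 0.30. Numbers were therefore treated as pairs in the within-pair values and the blocked fits. The fits given first left the number out, so their standard errors and p-values ignore this pairing. Replicates differed by more than sampling noise (chi-square per degree of freedom 6.05 to 55.6). Alternatives were the replicate block, DESeq2, other count filters, nuclear genes only, each library left out and number 1 left out. The blocked fit without number 1, DESeq2 with the block, the plastid-encoded median without copies counted in number 1 alone, and the count of non-overlapping groups on 2 scales were added after seeing the data.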

Additional observations from a re-analysis of the deposited data

How the results depend on the processing

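For the change in RPF with light, 0 members were called in each fit except the one with the replicate block, which called 1. Leaving out each library gave 0 to 0 calls and a median from -0.054 to 0.36. In total RNA and translational efficiency 0 members were called in every alternative run; leaving out each library gave 0 to 0 calls, with medians from -0.13 to 0.03 and from 0.01 to 0.38. For EMB3136 in total RNA the log2 change of -0.20 turned to 0.0055 without low-light library 1 and was -0.32 without low-light library 3.

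The calls in the low-light ratio depended on the fit, from 0 in the fit given first to 4 with DESeq2, 2 with no filter on low counts, 7 with the replicate block, 1 without all number 1 libraries, 7 with the block and without number 1, and 5 with DESeq2 and the block. Leaving out each library gave 0 to 1 calls and medians from -0.50 to -0.14. In the high-light ratio 2 members were called, beside 745 genes higher and 243 lower of 13845. A mean of at least 10 CPM left 1 call, beside 456 and 164 of 7407. Without number 1 there were 0, beside 656 and 298 of 14239. Leaving out each library gave 0 to 1 calls and medians from -0.38 to 0.08. The cause was not tested. With no filter on low counts the median of all genes in that ratio was -0.12 in place of -0.01.

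As shares of all protein-coding counts, the members took 0.384% of low-light RPF, 0.362% of high-light RPF, 0.328% of low-light total RNA and 0.317% of high-light total RNA. Leaving out each library moved their share of nuclear counts between 0.707 and 0.769%, 0.729 and 0.846%, 0.912 and 0.965%, and 0.903 and 1.00% in these groups. It moved the median level per kb between 137 and 155, 144 and 170.3, 156 and 179, and 153 and 175 CPM.

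Over all genes, 24 were called in RPF in the fit given first, 196 with the block, 59 with the block in DESeq2, 38 with DESeq2, 46 with no filter and 15 with a mean of at least 10 CPM. In total RNA 37 became 130, 105, 64, 58 and 32 in the same settings. In the low-light ratio 592 became 1462 with the block and 1379 with no filter, and in the high-light ratio 988 became 1575, 1586 with no filter, and 620 with a mean of at least 10 CPM. Without number 1 the counts were 17, 22, 948 and 954 in RPF, total RNA and the low-light and high-light ratios, and 55, 125, 1933 and 1683 with the block as well. In translational efficiency 0 genes became 2 with no filter and 4 with the block in DESeq2. Members had 48 counts or more in each library, and standard errors of the RPF change were 0.21 to 0.38 in log2. An alternative per coding length was not run.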
